A study of Mus musculus with 2 samples.

Results

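Reproducible intergenic loci are stretches of the mouse genome outside every annotated gene from which long reads were obtained in both of 2 adrenal gland libraries. Each library was made from total RNA of the adrenal gland of a male B6CASTF1/J mouse, an F1 hybrid, at an age of 10 days. There was 1 group, no treatment and no second condition, with 2 biological replicates per the labels, of which replicate 2 started from 1 µg of RNA. Synthetic spike-in RNAs were added to both. The labels give both samples the same donor, so whether they are 2 animals is unclear, and every value below compares 2 libraries and not conditions.

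The loci were chosen by the reads themselves. A locus is a transcript model of the Intergenic class on chromosomes 1 to 19, X or Y, and a member is a locus that overlaps such a locus of the other library on the same strand by 1 base or more, at any number of reads. Replicate 1 held 1558 intergenic loci and replicate 2 held 3836. Of these, 639 and 673 met the rule and merged into 632 members, while 919 and 3163 loci were found in 1 library. At the edge of the rule, 7 of 681 pairs of loci overlapped by exactly 1 base, with 1 to 14 reads in replicate 1 and 1 to 10 in replicate 2. The nearest pairs outside it lay 2, 3 and 217 bases apart, and replicate 1 had 5, 1 and 1 reads there against 36, 1 and 1 of replicate 2.

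RNA from between genes has several known sources. RNA polymerase II can run on past the end of a gene, it can start in the opposite direction at the promoter of a gene, and it transcribes long noncoding RNAs that an annotation does not list. Young mobile elements and multicopy gene families also give transcripts, and short RNAs can come from RNA polymerase III. The adrenal gland joins a cortex that makes steroids to a medulla that makes catecholamines.

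The libraries held 971827 and 1407511 reads, of which 927914 and 1303420 lay on annotated genes, and CPM below means reads per 1000000 of the latter. The cortex genes Star, Cyp11a1, Hsd3b1, Cyp21a1, Cyp11b1, Nr5a1 and Mc2r summed to 30930 and 19866 CPM and the medulla genes Th, Dbh, Pnmt, Chga and Chgb to 11403 and 6053 CPM in replicates 1 and 2. Transcripts of other tissues were also present: 6 liver genes led by Alb summed to 9013 and 27047 CPM, 5 brown fat genes to 8106 and 9811 CPM and 3 red cell genes to 1104 and 3752 CPM. Kidney markers were nearly absent, with 5 reads of Aqp2 in each library and 0 of Umod, Slc12a1 and Slc34a1. Bulk libraries cannot tell fewer cells of a type from less RNA per cell. These sums differ between the libraries, and not every gene followed its sum. Cyp11a1 was nearly equal (7423 and 7442 CPM), and Mc2r (36.6 and 64.4 CPM) and Pnmt (639 and 707 CPM) were higher in replicate 2. Ucp1 (4451 and 2927 CPM) and Alas2 (98.1 and 56 CPM) were lower there. The part of these sums in the read ratios below was not tested.

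Some members began near a gene start that RefSeq lists. Not all of these genes are missing from the annotation of the files (GENCODE M21, build mm10), since Magohb is in both. RefSeq windows from 250 bases before to 50 bases after each gene start (build GRCm38.p6, the same assembly) held a 5′ end of 21 of 632 members on the same strand and of 39 on the other strand. The DNA before 4 same-strand starts is shown because a member begins in the window. At 2310047K21Rik, Cahm and 9430083A17Rik the member begins on the base just before the stretch and runs through it. That base is at -162, -65 and -153 bases from the RefSeq start, where a minus sign means before it. The bases shown there thus lie inside the member. At Gm33293 the member begins on the last base of the stretch or just after it. The 4 members rank first among those 21 by reads in the library where they have fewer, with ties ordered by reads in replicate 1. Bases inside an M21 gene are left out. Capitals mark a motif on either strand. The motifs searched were the GC box with the letters GGGCGG, the CCAAT box with the letters of its name, and the TATA box with the letters TATAAA, each also as its reverse complement, and adjoining copies of a motif run together. Each stretch is written 5′ to 3′ on the strand of the named gene.
2310047K21Rik, chr2:104816761-104816921, plus strand: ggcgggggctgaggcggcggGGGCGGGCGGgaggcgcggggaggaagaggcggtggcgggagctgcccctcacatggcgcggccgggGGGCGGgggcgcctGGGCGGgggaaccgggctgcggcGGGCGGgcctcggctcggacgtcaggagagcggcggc
Cahm, chr17:10319855-10319918, plus strand: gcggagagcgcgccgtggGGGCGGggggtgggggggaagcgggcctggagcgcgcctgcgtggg
9430083A17Rik, chr13:51100728-51100879, minus strand: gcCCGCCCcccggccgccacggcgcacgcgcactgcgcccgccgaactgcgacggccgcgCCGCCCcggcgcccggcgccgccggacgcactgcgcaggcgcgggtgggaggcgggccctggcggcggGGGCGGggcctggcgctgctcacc
Gm33293, chr5:67231687-67231936, minus strand: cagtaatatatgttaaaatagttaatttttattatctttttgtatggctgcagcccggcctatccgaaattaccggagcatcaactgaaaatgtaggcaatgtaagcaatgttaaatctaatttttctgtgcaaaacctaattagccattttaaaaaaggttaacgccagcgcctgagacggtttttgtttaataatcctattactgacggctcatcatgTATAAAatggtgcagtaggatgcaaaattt

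The 2310047K21Rik locus, chr2:104816760-104818679 on the plus strand, had 6 reads in replicate 1 and 4 in replicate 2. It started in both libraries at the first base of Qser1, a gene of the opposite strand, and its models of 1919 and 1920 nt ended 1 base apart. The Cahm locus, chr17:10319854-10321141, had 3 and 7 reads and models of 1288 and 1286 nt, and it started at the first base of Qk, which encodes the RNA-binding protein quaking and is read the other way. The 9430083A17Rik locus, chr13:51097739-51100880, had 5 and 2 reads, models of 3142 and 3135 nt and the start base of Spin1, a reader of methylated histones. These 3 loci are therefore single-exon transcripts head to head with a protein-coding gene, with the same 5′ base in both libraries. That base is the outermost base of the annotated gene, and such an edge can fix an end in both libraries. The shared base is therefore not read as a measured start site. Gm33293 differed in all of this. Its locus, chr5:67222105-67231687, lay 28284 bases from the nearest annotated gene, Gm42670, and was spliced over the same intron in both libraries, with 2 and 6 reads, models of 299 and 301 nt and 5′ ends at and 1 base before the RefSeq start.

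Further stretches are shown for members that start in the window of a gene on the other strand. They are the 2 with most reads in the library where they have fewer. The Qser1 window is left out because it covers the same DNA as that of 2310047K21Rik. Each is the 250 bases before the start of the gene, on the strand of the gene, and the locus runs through them the other way.
Tbc1d22a, chr15:86214209-86214458, plus strand: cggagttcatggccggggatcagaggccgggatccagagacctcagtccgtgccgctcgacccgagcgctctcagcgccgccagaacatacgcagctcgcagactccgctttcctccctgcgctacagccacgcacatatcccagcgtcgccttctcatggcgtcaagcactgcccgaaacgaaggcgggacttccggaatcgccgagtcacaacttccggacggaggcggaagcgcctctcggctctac
Rrn3, chr16:13780449-13780698, plus strand: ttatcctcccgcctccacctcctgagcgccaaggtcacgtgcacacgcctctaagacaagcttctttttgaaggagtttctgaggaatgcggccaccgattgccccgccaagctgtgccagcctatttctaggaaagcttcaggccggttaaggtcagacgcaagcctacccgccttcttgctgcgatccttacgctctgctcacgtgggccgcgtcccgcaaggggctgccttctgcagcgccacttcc

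The locus opposite Tbc1d22a, chr15:86212657-86214459 on the minus strand, had 16 reads in replicate 1 and 58 in replicate 2, and both libraries put its 5′ end on the first base of Tbc1d22a. In replicate 1 its model of 1803 nt also ended on the edge of the small nuclear RNA gene Gm22818, so that it filled the space between the 2 genes, and in replicate 2 the model had 724 nt. The locus opposite Rrn3, which encodes an initiation factor of RNA polymerase I, had 4 reads in each library and models of 3547 and 1744 nt that began 9 bases after the RefSeq start. Neither window held any of the 3 motifs, which says only that these letters are not in these bases. Over the 250 bases before each start, a GC box was found in 10 of 21 same-strand windows (47.6%), in 31 of 39 opposite-strand windows (79.5%) and in 10756 of 32851 RefSeq windows (32.7%). A CCAAT box was found in 33.3%, 23.1% and 33.8% of them, and a TATA box in 1 window, 0 windows and 12.4%. The median number of CpG dinucleotides was 16, 25 and 6, so the windows opposite members were richer in CpG than the median RefSeq window. These are descriptions of letters, with no test.

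Detection in the second library rose with the number of reads in the first. Of the loci with 1 read, 390 of 1221 in replicate 1 (31.9%, 95% Clopper-Pearson interval 29.3 to 34.6%) and 290 of 2893 in replicate 2 (10.0%, 8.95 to 11.2%) were found again. At 10 or more reads, 28 of 30 loci of replicate 1 (93.3%, 77.9 to 99.2%) and 87 of 121 of replicate 2 (71.9%, 63.0 to 79.7%) were. Since the rule asks for detection, these shares describe how members were chosen. All intervals here describe counting error alone, because PCR copies of 1 molecule can be counted more than once.

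**Figure D1:**
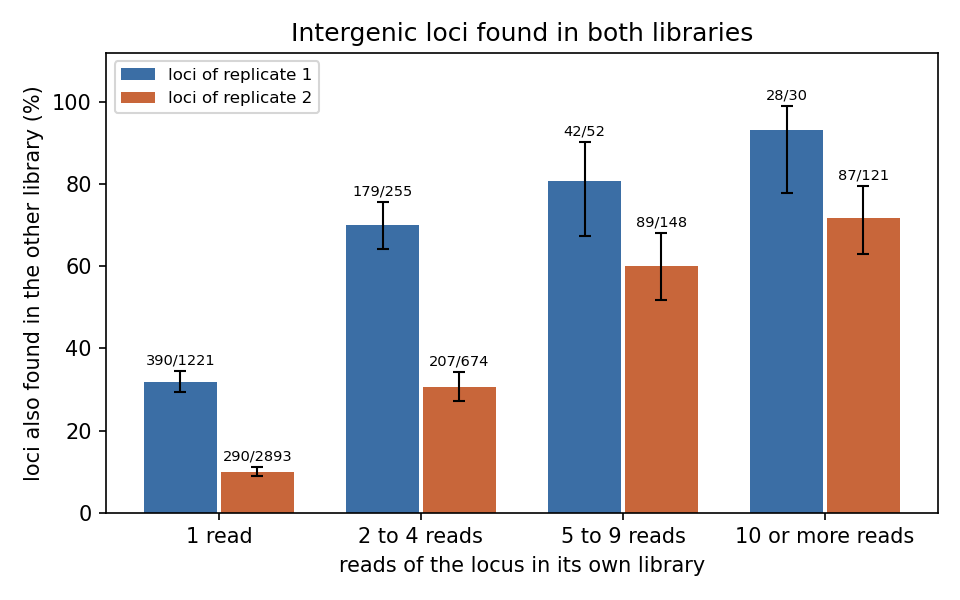
Share of intergenic loci of each library that were also found in the other library (%), by the number of reads of the locus in its own library. Bars give the share, error bars the 95% Clopper-Pearson interval, and the numbers above them the loci found again out of all; the share reaches 93.3% for loci of replicate 1 with 10 or more reads.

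The members were mostly rare transcripts. Together they took 1903 of 956612 reads outside the spike-ins in replicate 1 (0.199%, 0.190 to 0.208%) and 4292 of 1372356 in replicate 2 (0.313%, 0.303 to 0.322%). A member had 1 read (the median) in replicate 1, with a highest value of 153, and 2 reads in replicate 2, with a highest value of 248. Of 632 members, 196 had 1 read in both libraries at once, 194 had 2 or more in both, 55 had 5 or more in both and 23 had 10 or more in both. The 10 members with most reads held 28.6% and 27.9% of all member reads.

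**Figure D2:**
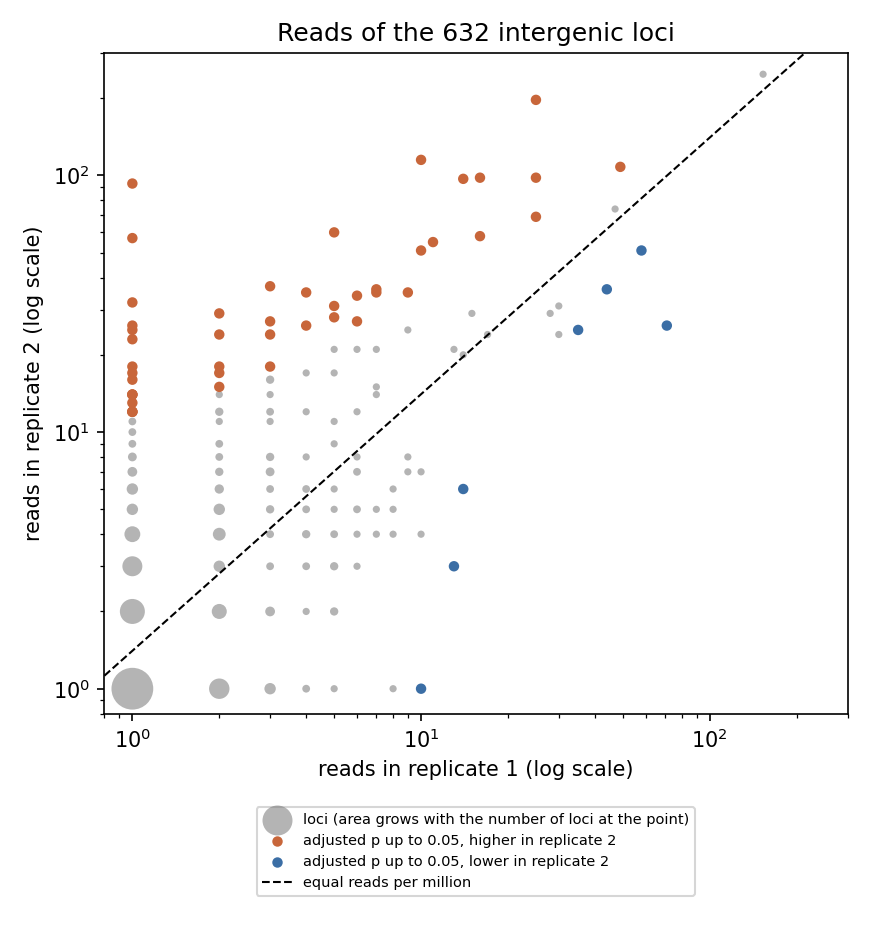
Reads of each of the 632 members in replicate 1 (x axis, log scale) and replicate 2 (y axis, log scale). Grey points stand for members, with an area that grows with the number of members at a point, coloured points for members past an adjusted p of 0.05, and the dashed line for equal CPM; 196 members sit at 1 read in each library.

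The locus with most reads was chr13:55184670-55189156 on the plus strand, with 153 reads in replicate 1 and 248 in replicate 2, or 178 ± 17.9 CPM (mean ± SD, n = 2). It lay 15911 bases downstream of Fgfr4, a receptor for fibroblast growth factors, on the same strand, and 20626 bases before Nsd1, which encodes a histone methyltransferase. Its single-exon models of 4487 and 4388 nt ended 1 base apart, while Fgfr4 itself had 41 and 24 reads, fewer than the locus in both libraries. The ratio of replicate 2 over replicate 1 was 1.15 (Fisher's exact test, adjusted p = 0.303), a difference that passed with TMM and DESeq2 scaling (adjusted p = 0.0117 and 0.00569, and from 0.00569 to 0.519 over 5 alternatives).

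The distances of other well-read loci to their nearest genes differed. The locus chr14:32115638-32118253, 12436 bases downstream of Oxnad1 on the plus strand, had 49 and 108 reads and models of 2612 and 2611 nt with 5′ ends 4 and 3′ ends 5 bases apart. The locus chr11:86811826-86816129, 4080 bases upstream of the helicase gene Dhx40 on the minus strand, had 58 and 51 reads, but its main model was 4304 nt long in replicate 1 and 148 nt in replicate 2. At chr7:28256359-28261405, 6476 bases from Eid2 and head to head with it, the main model measured 5042 nt in replicate 1 (71 reads in all) and 148 nt in replicate 2, where the 26 reads fell on 2 models. The 3′ ends of the Dhx40 neighbour lay 1 base apart, whereas the models near Eid2 shared their 5′ end within 5 bases. The locus chr17:34996681-35000354, 633 bases from Vars, the valyl-tRNA synthetase gene, had 30 and 31 reads and overlaps D17H6S56E-5, a RefSeq gene that M21 does not list.

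The kind of the nearest gene varied. It was protein-coding for 390 members (61.7%), a pseudogene of any kind for 130 (20.6%) and a lincRNA for 46, and for 215 members (34.0%) it had 0 reads in both libraries. Of the 10 members with most reads in the smaller library 4 had a pseudogene with 0 or 1 reads per library as nearest gene, namely chr2:75638300-75642873 beside Gm13655 (47 and 74 reads), chrY:43918754-43923544 beside Gm21241 (44 and 36), chr3:11013515-11015188 beside Gm21631 (28 and 29) and chr9:22320306-22321105 beside Gm10182 (35 and 25). On the X chromosome, chrX:32502574-32507552 lay 52503 bases upstream of Btbd35f1, a gene of a multicopy X-linked family without reads here, and had 25 and 98 reads. How reads that match several copies were placed is not given in the sources used here, so the reads of loci in families are uncertain.

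With respect to strand, members were spread over all 4 arrangements. Where genes were equally near, one on the strand of the member was taken as the nearest. The locus opposite Tbc1d22a, for example, is thus counted as upstream of Gm22818 and not as head to head. Of 632, 179 (28.3%, 24.8 to 32.0%) lay downstream of the nearest gene on its strand, 156 (24.7%) faced it tail to tail, 152 (24.1%) head to head and 145 (22.9%) lay upstream on its strand. The loci found in 1 library were downstream on the same strand in 26.6% and 28.7% of cases. With the nearest gene taken among those with 10 or more reads, the share of members downstream on the same strand was 22%. The median distance was 1998 bases, with quartiles at 496 and 8437 bases and a maximum of 321947, against medians of 2578 and 2712 bases for loci of 1 library. Only 31 members lay over 50000 bases from a gene.

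A large minority of members touched a gene by exactly 1 base. This held for 139 of 632 members (22%, 18.8 to 25.4%), and 0 shared more than 1 base. The end of such a model is the outermost base of the annotated gene, and among the remaining 493 the smallest distance was 306 bases. It was seen for 68 of 152 head-to-head members (44.7%), 47 of 179 downstream on the same strand (26.3%), 14 of 156 tail to tail and 10 of 145 upstream. In loci of 1 library the share was 18% and 18.1%. Positions at such an edge are therefore given as the files list them, and how the authors' software set them is not given in the sources used here.

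**Figure D3:**
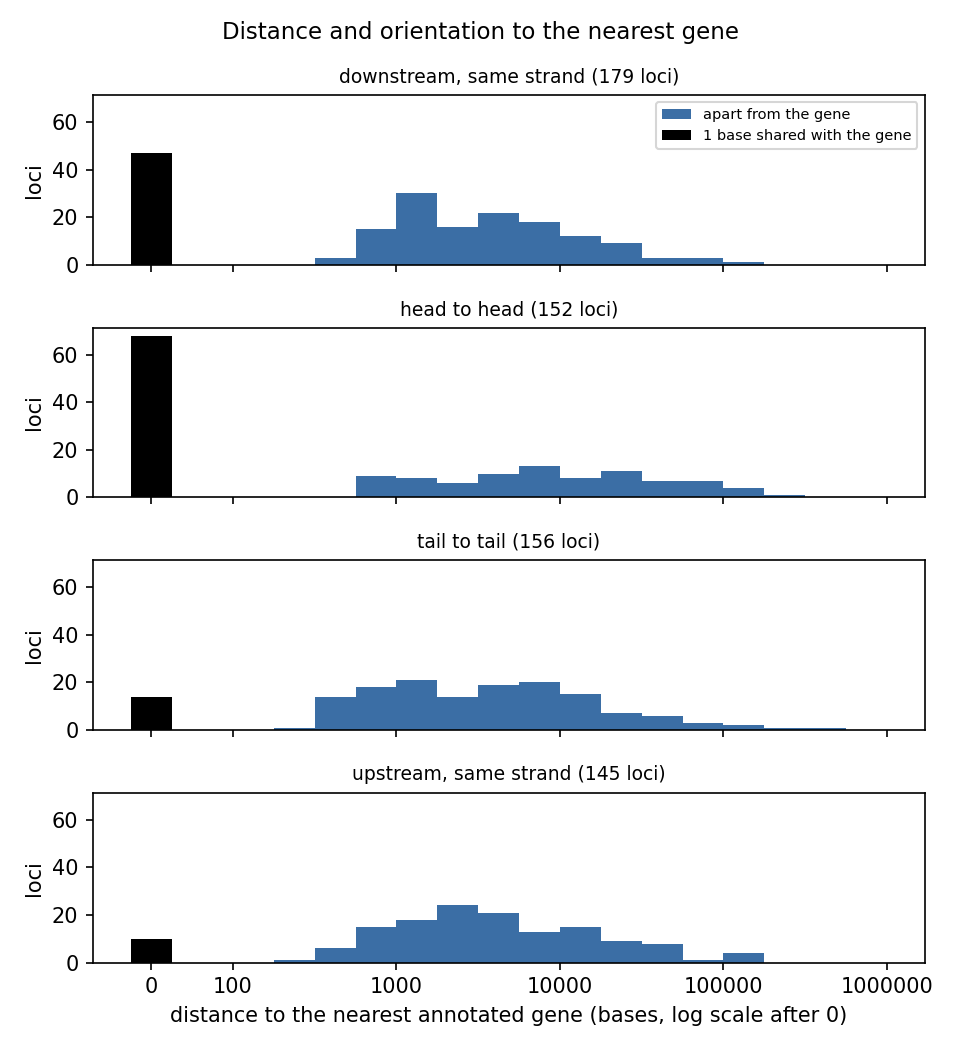
Distance from each member to its nearest annotated gene (x axis, bases, 0 and then a log scale) against the number of members (y axis), in 1 panel for each arrangement of strands. Black bars count members that share 1 base with the gene, 139 in all, and no member lies between this bar and 306 bases.

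Transcripts head to head with a gene and touching it lay mostly beside protein-coding genes with reads of their own. Of the 68 such members, 61 touched a protein-coding gene and 55 a gene with 10 or more reads, and they had a median length of 1299 nt in replicate 1 and 859 nt in replicate 2, with at most 15 and 29 reads. The locus at Cpeb4, a regulator of mRNA polyadenylation (chr11:31870911-31872211), had 15 and 29 reads, more than the 4 and 9 reads of Cpeb4. At Sept7, a septin of the cytoskeleton, the locus had 5 and 11 reads beside 186 and 175 of the gene, and at Cul1, a scaffold of ubiquitin ligases, 7 and 4 beside 146 and 142. The locus at Bicra had 4 and 26 reads and 5′ ends on the same base. At Efna5, an ephrin ligand, the locus chr17:62881317-62882719 had 1 and 14 reads, and both libraries gave a model of 1403 nt with the same first and last base, while the gene itself had 0 and 5 reads. Of all 152 head-to-head members, 64 in replicate 1 and 55 in replicate 2 had their 5′ end on the start base of the gene. Such an edge can fix an end in both libraries. A shared 5′ base at the edge, as at Efna5, is therefore not read as a measured start site.

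Among the members behind a gene of the adrenal cortex, the one with most reads follows Cyp11b2. Cyp11b2 encodes aldosterone synthase of the outer cortex, and the locus chr15:74848912-74851010 on the minus strand starts at its last annotated base and ends 7269 bases before Cyp11b1. It had 17 reads in replicate 1 and 24 in replicate 2 (18.4 ± 0.0654 CPM, n = 2), and both libraries gave 1 single-exon model of 2099 nt with the same ends. The gene itself had 627 and 221 reads, while the ratio of the locus was 0.997 (Fisher's exact test, adjusted p = 1). RefSeq extends Cyp11b2 over this stretch. The 5′ base of the locus is an edge of the annotated gene, and such an edge can fix an end in both libraries. Of the 47 members that touch the end of a gene on its strand, 16 follow a protein-coding gene and 27 a pseudogene, and 42 and 38 of them start on the last base of the gene in replicates 1 and 2.

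Of 25 genes listed for steroid synthesis and the adrenal cortex, 3 were the nearest gene of a member (Cyp11b2, Hsd3b1 and Kcnk3). In the medulla list this held for 1 of 21 genes (Th) and in the imprinted and fetal growth list for 0 of 19. Among all annotated genes it held for 610 of 55413. The 5 loci of the listed genes all lay downstream on the same strand. These lists are partial: Rtl1, an imprinted gene outside them, was nearest to chr12:109600821-109603056 (8 and 4 reads). Behind Kcnk3, a potassium channel of aldosterone-making cells, 1 locus touched the gene (chr5:30625271-30627512, 2 and 3 reads) and another followed 3936 bases on (chr5:30629207-30633256, 3 and 16 reads). The second had 2 models in each library, and its main models of 1330 and 2721 nt shared 1 base. Its ratio was 3.36 (adjusted p = 0.083, Fisher's exact test), which passed with TMM and DESeq2 scaling (adjusted p = 0.0357 and 0.0355, and from 0.0355 to 0.159 over 4 alternatives), while Kcnk3 had 1767 and 1058 reads. Behind Th, the first enzyme of catecholamine synthesis, a locus 1171 bases away had 2 and 6 reads beside 2150 and 1341 of the gene. Behind Hsd3b1, which converts pregnenolone to progesterone, one 636 bases away had 2 and 1 reads beside 5098 and 3938.

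RefSeq listed a gene over part of many members. In all, 230 of 632 (36.4%) overlapped a RefSeq gene by more than 1 base, against 30.1% and 29.4% of loci of 1 library, and for 101 this gene had no symbol in M21. For 129 members the RefSeq gene was the nearest M21 gene itself, with a longer extent. Such was the case for 59 of 179 members downstream on the same strand (33.0%), so these are outside a gene in 1 annotation and at least partly inside it in the other. In M21 the gene of these 59 lies on the strand of the member. The strand of RefSeq genes was not read here, so other overlaps can lie on either strand.

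Members differed widely in length. The main model, the one with most reads, had a median of 971 nt in replicate 1 and 516 nt in replicate 2, and ranged from 82 to 6175 nt and from 80 to 5229 nt. It was longer in replicate 1 at 328 members, longer in replicate 2 at 243 and equal at 61. In both libraries 170 members (26.9%) had a main model of up to 200 nt, and 79 and 78 of these measured 170 to 179 nt. The single most frequent length was 177 nt in replicate 1 (17 members) and 178 nt in replicate 2 (15 members).

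**Figure D4:**
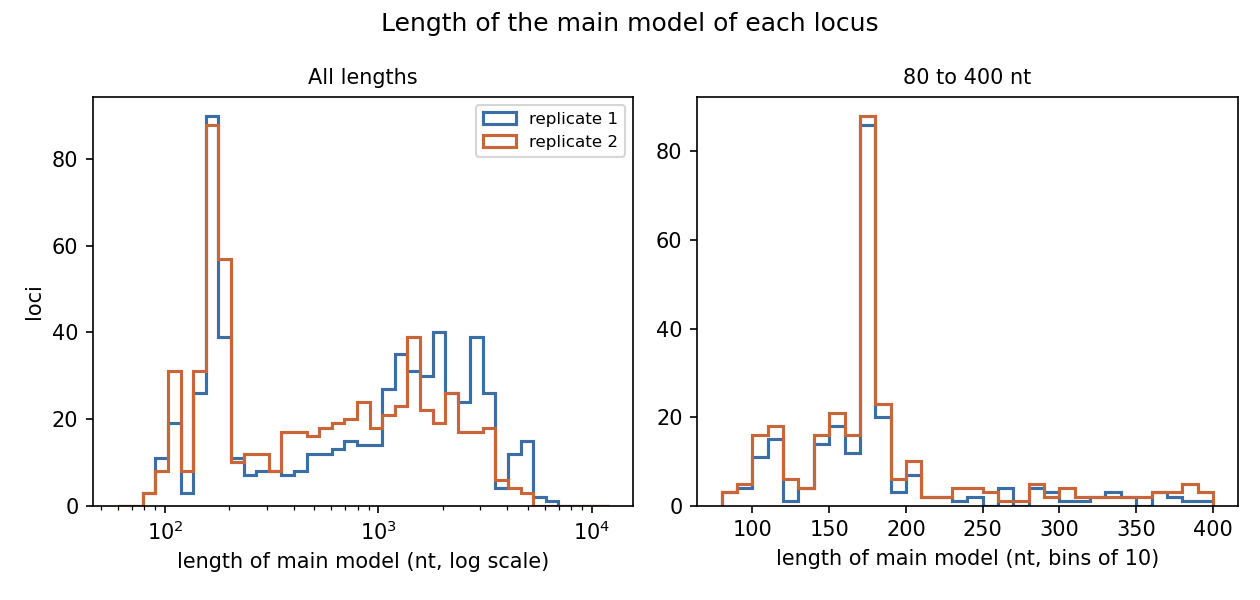
Number of members (y axis) by the length of their main model (x axis, nt) in replicate 1 and replicate 2, over all lengths on a log scale and from 80 to 400 nt in bins of 10. Both libraries show a narrow peak at 170 to 179 nt, which holds 79 and 78 of the 170 members that are short in both.

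The short members lay apart from genes. They were chosen for overlapping main models of up to 200 nt in both libraries, which in itself limits how far lengths and ends can differ. In single libraries, 191 members were short in replicate 1 and 223 in replicate 2, and those short in only 1 library are left out here. In 147 of 170 the 2 main models agreed in length within 10 nt, 167 had 5′ ends and 165 had 3′ ends within 20 bases, and 2 touched a gene. Their median distance to a gene was 8521 bases against 1165 for the other members, and they were split evenly over the arrangements, with 45 downstream on the same strand, 47 tail to tail, 35 head to head and 43 upstream. Members of this kind include chr5:8754332-8754484 near Abcb1a, with 11 and 55 reads and models of 153 nt in both libraries, and chr2:50017464-50017639, 48790 bases from Lypd6, with 9 and 35 reads and models of 175 and 176 nt. The locus farthest from a gene among those with 5 or more reads in each library was also short: chr1:27505703-27505813, 168935 bases from the pseudogene Gm19641, had 5 and 17 reads and a model of 111 nt in both. All 170 together had 315 and 1245 reads, or 339 and 955 CPM. Models of 170 to 179 nt were also 8.49% and 13.6% of loci of 1 library. Which repeats or genes lie at these positions was not analysed here.

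Of all 632 members, 488 (77.2%, 73.7 to 80.4%) had main models with 3′ ends within 20 bases of each other, 353 (55.9%, 51.9 to 59.8%) had 5′ ends within 20 bases and 278 had both. The 3′ ends were at the same base in 263 and the 5′ ends in 153. The rule asks for overlap and not for shared ends. An annotated exon edge, which can fix an end in both libraries, was the 5′ end of 117 members and the 3′ end of 23. Away from such edges, 467 of 609 (76.7%) 3′ ends and 267 of 515 (51.8%) 5′ ends lay within 20 bases. Without the short members the share of agreeing 3′ ends was 69.9%.

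Few members were spliced. A model with more than 1 exon was found at 90 of 632 members (14.2%, 11.6 to 17.2%) in either library and at 47 in both. Of those 47, 37 shared an intron and 23 had the same intron chain, with 1 to 10 reads in replicate 1 and 1 to 21 in replicate 2. Among loci of 1 library, 13.5% and 7.59% had more than 1 exon. Spliced members lay farther from genes than single-exon ones, with medians of 4424 and 1746 bases. These medians include members that share a base with a gene. Without such members the median over all kinds was 4029 bases, and without the short members it was 1165. Spliced and single-exon members were not compared under either setting, so the part of splicing in this difference was not tested. Of the spliced members, 37 of 90 (41.1%) overlapped a RefSeq gene with no M21 symbol, against 64 of 542 (11.8%) single-exon ones. Ranked by reads in the smaller library, the first locus with a shared chain, chr14:43118786-43120243, had 10 and 7 reads, 2 exons and models of 1399 and 1401 nt, 694 bases from the pseudogene Cdv3-ps. Next came chr8:126978047-126979382, within RefSeq Gm29688, with 5 and 21 reads and models of 261 and 238 nt. Of the 23, 14 overlapped a RefSeq gene with no M21 symbol and 9 had a pseudogene as nearest gene. Those over RefSeq lncRNAs include Gm35162 (2 and 2 reads), which begins head to head with the Wnt inhibitor gene Nkd1, and 4931408D14Rik (1 and 4 reads, 3 exons), 4624 bases from the insulin-degrading enzyme gene Ide.

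To compare levels, every annotated gene and intergenic locus that reached 10 reads when the libraries are added was tested for its share of reads (two-sided Fisher's exact test, Benjamini-Hochberg adjustment over 11808 features). Of 632 members 122 passed this filter, most of them through replicate 2, where 85 had 10 or more reads against 28 in replicate 1, so the count of calls is not read as a result about members. Of the 122, 52 passed the threshold of 0.05 after adjustment, where 35.4% of all features did. Higher in replicate 2 were 45, against 13.5% of all features, and lower were 7, against 22.0%. The median log2 ratio of replicate 2 over replicate 1 was 1.38 in these 122 members, but -0.49 in all 632 with no filter. A member with equal reads in both libraries has a ratio of -0.49, and 196 members had 1 read in each. The unfiltered median is therefore not read as a lower level of members in replicate 2. Over all features the median was -0.25 with the filter and 0.01 without, and TMM scaling moved the filtered value over all features to -0.01. Calls numbered 53 higher and 3 lower with TMM and 56 and 3 with DESeq2 factors. With no filter, 42 of 632 members passed, 38 higher and 4 lower, where 15.8% of 23294 features did, 6.17% higher and 9.63% lower.

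Over all 632 members, those with a main model of up to 200 nt in replicate 1 summed to 369 CPM in replicate 1 and 1052 in replicate 2. The sums were 280 and 644 CPM for 201 to 1000 nt, 730 and 831 CPM for 1001 to 3000 nt, and 672 and 766 CPM for over 3000 nt. All 4 sums were thus higher in replicate 2, and no test was made of their differences. In the 122 members past the filter, the median log2 ratios of these classes were 1.83, 1.70, 0.31 and 0.10, given as a description because the filter was passed mostly through replicate 2. Length and library moved together over the members, with 18% and 40.8% of their reads on main models of up to 200 nt in replicates 1 and 2. The part of length in these ratios was not tested.

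**Figure D5:**
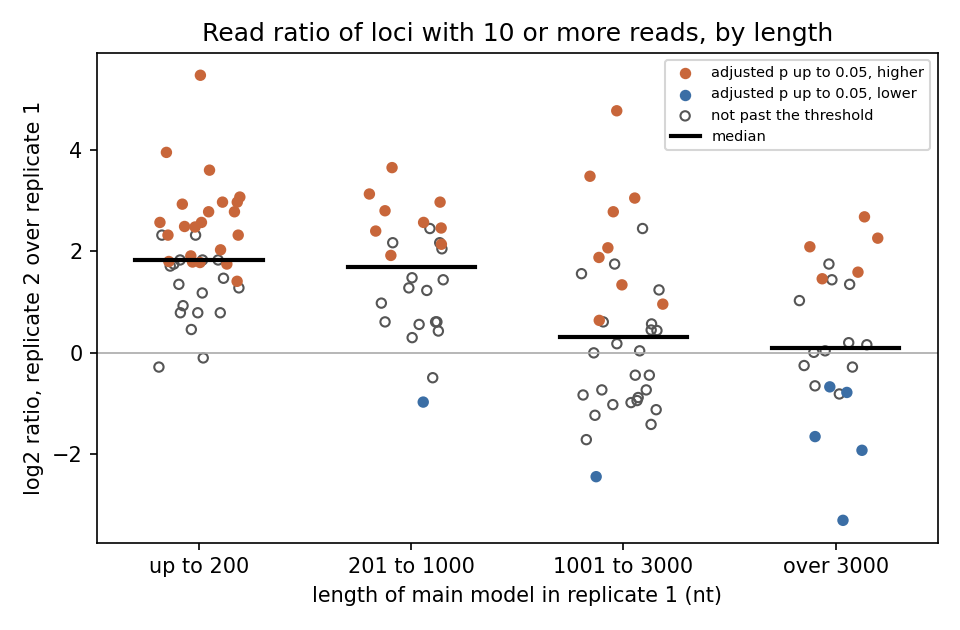
Log2 ratio of CPM, replicate 2 over replicate 1 (y axis), of the 122 members with 10 or more reads, by the length of the main model in replicate 1 (x axis, nt). Filled points passed Fisher's exact test after adjustment at 0.05, open points did not, and bars are medians, which fall from 1.83 in the shortest to 0.10 in the longest group.

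The 3 members with the highest ratios had 1 read each in replicate 1. A locus of 91 to 93 nt on chromosome 18 beside the pseudogene AC148013.1 had 1 and 93 reads, chrY:59662481-59667267, 29713 bases from the pseudogene Gm20871, had 1 and 57, and chr6:3200966-3201255 had 1 and 32. With reads of all model classes, the chrY locus had 9 and 57 reads, and its log2 ratio fell from 4.77 to 2.11. Among members with 10 or more reads in replicate 1, the highest ratio was that of chr15:103619063-103619240, a locus 30552 bases from the lincRNA gene Gm49272, with 10 reads in replicate 1 and 115 in replicate 2 (7.83-fold, adjusted p = 1.44e-15, Fisher's exact test). At chr12:24637937-24638669, which touches the end of the pseudogene Gm6969, the locus had 25 and 197 reads (5.51-fold, adjusted p = 1.43e-21, Fisher's exact test) while the pseudogene had 108 and 5; the locus was higher in replicate 2 and the pseudogene in replicate 1. Main models there measured 733 and 116 nt.

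Of the 7 members that were lower in replicate 2, 3 (near Eid2, Hipk2 and Marveld2) kept the call under TMM and DESeq2 scaling. The locus near Eid2 fell to 0.264 times the CPM of replicate 1 (Fisher's exact test, adjusted p = 5.04e-09). The locus chr6:38687514-38689549, 4841 bases downstream of the kinase gene Hipk2, had 13 and 3 reads (0.185 times), and chr13:100589003-100594003, 1954 bases downstream of Marveld2, which encodes a protein of tight junctions, had 10 and 1 (0.102 times). With reads of all model classes the Marveld2 neighbour had 13 and 5 reads and a log2 ratio of -1.79, against -3.30. The locus near Gm26615 then had 17 and 24 reads in place of 14 and 6 and was not called (Fisher's exact test, adjusted p = 1). The calls for the loci near Dhx40, Gm21241, Gm10182 and Gm26615 (0.627, 0.584, 0.511 and 0.319 times) were lost under both scalings, with adjusted p between 0.113 and 0.303 by Fisher's exact test.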

How the data were processed

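The deposited tables give counts, whole numbers of reads per TALON transcript model in 1 library, with the number of exons and the length of each model, and the deposited annotations give model positions on mm10 (other units: bases). No normalization was applied to the counts as deposited. Software versions: not given in the sources used here. The members and the lists were chosen with earlier results of these data known.

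Loci were matched by 1 base or more on the same strand. Gene spans were taken from annotated transcripts, since the gene lines of the files are widened by added models. Distances are differences of coordinates. Loci were named by rule: the 10 with most reads in the smaller library, 5 multi-exon, 5 farthest from genes, 5 downstream, 5 head to head, neighbours in the lists, and the 3 largest ratios each way; other names were chosen after values were seen. Fisher's exact tests used scipy 1.17.1 and were tested on simulated data, with 0.5 reads added before log2 ratios; TMM factors came from edgeR 4.0.16 and size factors from DESeq2 1.42.0. Tables were handled in Python 3.11.15 with pandas 2.3.3, and plots were drawn with matplotlib 3.10.9. The floor set by a zero is 3 reads, which is 3.23 and 2.30 CPM in replicates 1 and 2. With 1 library against 1, p-values measure only counting error between these libraries. Some genes of the marker and neighbour lists are not reported here.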

Additional observations from a re-analysis of the deposited data

Results flagged for a closer look

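Models of other classes lie in the same loci and are outside the counts above. They held 256 reads at 54 members in replicate 1 and 238 reads at 56 members in replicate 2, above the 3 reads that a count of 0 allows. Genomic models had most of them (166 and 135 reads), and models with an unannotated splice site had 33 and 53. The locus chrY:43918754-43923544 had 47 and 24 such reads and chrX:32502574-32507552 had 26 and 24.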

How the results depend on the processing

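The count of 632 members was 453 with an overlap of 50% or more of both spans and 626 with an overlap of exons. It was 194 with 2 or more and 55 with 5 or more reads in each library, and 47 with multi-exon models. It was 76 with overlaps on opposite strands in place of the same strand, whether or not a locus also overlapped on the same strand. The share downstream on the same strand (28.3%) was 23.4% for the nearest protein-coding gene, 22% for neighbours with 10 or more reads and 36.4% for members with 5 or more reads in each library, and 28.2% without either replicate. The median distance (1998 bases) was 4408 for protein-coding genes, 1578 for members with 5 or more reads in each library, and 2218 to 2244 without 1 replicate. It was 4029 bases without members that share a base with a gene and 1165 without the short ones. The share with a spliced model (14.2%) was 7.44% in both libraries, 3.64% with the same chain, 10.9% with 5 or more reads in each and 19.5% without the short ones. The share of agreeing 3′ ends (77.2%) was 81.8% within 100 bases, 81.8% with 5 or more reads in each and 69.9% without the short ones. Multi-exon models took 0.0184% and 0.0101% of reads, against 0.199% and 0.313%. Without the short members, 33 of 86 tested passed in place of 52 of 122. The near-zero ratio of the Cyp11b2 locus was 0.24 and 0.27 (log2) with TMM and DESeq2 factors, against -0.0 unscaled. Of 52 calls, 48 were kept with TMM, 48 with DESeq2 factors, 41 with no filter and 49 with reads of all model classes, where 1 locus (chr4:143975617-143978356) changed sign. Every alternative without short members, without members that share a base with a gene, or with reads of all model classes was chosen after seeing the data. The causes were not tested. Depth limits every locus with few reads: 380 and 254 members had 1 read in replicates 1 and 2. No paired analysis was possible because there is 1 group.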

Other observations

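Some intergenic models in the files are 1 base long. There was 1 such locus in replicate 1, with 5 reads, and 9 in replicate 2, with 20 reads in all. The one of replicate 1 lies on the Y chromosome, 2 bases from a member that had 36 reads in replicate 2, and 1 of the 9 fell within a member. In neither library did such a base coincide with an annotated exon edge.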
